A study of Rattus norvegicus with 12 samples.

Results

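The 8 genes described here, which oligodendrocytes use to build and keep myelin, were followed through CA1 of rats killed after a spatial learning task or a control task: Mbp, Mag, Mog, Mobp, Cnp, Cldn11, Lpar1 and Ugt8. They were found as the probe sets whose platform annotation gives 1 of these symbols and no other, which gave 15 probe sets for the 8 genes, out of 15866 probe sets for, among others, 10411 genes with a symbol of their own. Mobp had 3 probe sets, Mag and Mog 1 each and the other members a pair each. Of the 15, 14 were bright enough to test, among 9610 tested in all. The remaining one, the dimmer Ugt8 probe set, averaged 3.02 on the log2 scale, below the minimum mean of 4. Where a gene had several probe sets they are called brighter and dimmer after their signal on the array, which says nothing of the amount of transcript.

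RNA was measured in 6 rats after spatial learning and 6 after the control task, with 1 Affymetrix RAE230A array per rat, a 1-colour array in which short probes are grouped into probe sets. All were young male Long-Evans rats of 3 to 4 months, all had learned a standard water maze 2 to 3 weeks earlier, and all then had 8 trials, 8 min apart, in a new maze. For the spatial learning group the new maze offered orienting cues, and its visible platform was fixed. For the control task the visible platform was moved between trials and the surroundings gave no informative cues. Every rat swam a 90 s probe trial without platform 1 h after its last trial and was killed straight afterwards, so the control rats had also swum, been handled and been tested. CA1, the hippocampal field that sends the output of the circuit onward, was microdissected. The CA3 and dentate gyrus dissections are not analysed here.

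Myelin is the stack of oligodendrocyte membrane wrapped around axons. In its compact part the cytoplasm is squeezed out and the membranes are held together by basic proteins such as Mbp, while cytoplasm stays in the inner and outer tongues and the paranodal loops, where Cnp and Mag sit. In the hippocampus the densest myelin lies in the alveus, the fibre sheet along the outer edge of CA1, so that oligodendrocyte transcripts reach a CA1 dissection from the alveus as well as from cells scattered in the field itself.

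The promoters of Cnp, on which much of what follows turns, and of Mag and Mobp are shown, Mag as the other member whose window holds the Myrf motif and Mobp for its many copies of a SOX core. RefSeq windows on the GRCr8 assembly, 250 bases before to 50 after the annotated start, were found for 6 of the 8 genes, all but Mog and Lpar1, with 2 windows for Mbp. Each was searched on both strands for 4 short motifs: ACAAAG and ACAATG, core sequences bound by SOX factors such as Sox10, CTGGCAC, the core of the motif bound by the myelin regulatory factor Myrf, and CAGCTG, an E-box of the kind bound by Olig factors. CTGGCAC and CAGCTG can share bases where they adjoin, and no matches shown here do. Capitals mark the matches, in the direction in which the gene is read, so that ACAAAG on the other strand is seen as CTTTGT.
Cnp promoter, chr10:86011254-86011553, plus strand: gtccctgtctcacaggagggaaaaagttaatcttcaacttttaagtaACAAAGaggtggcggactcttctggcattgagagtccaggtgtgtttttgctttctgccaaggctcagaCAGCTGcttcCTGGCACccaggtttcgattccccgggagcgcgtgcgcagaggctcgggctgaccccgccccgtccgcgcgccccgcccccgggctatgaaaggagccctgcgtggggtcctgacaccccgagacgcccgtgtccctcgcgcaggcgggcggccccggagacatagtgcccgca
Mag promoter, chr1:95290995-95291294, minus strand: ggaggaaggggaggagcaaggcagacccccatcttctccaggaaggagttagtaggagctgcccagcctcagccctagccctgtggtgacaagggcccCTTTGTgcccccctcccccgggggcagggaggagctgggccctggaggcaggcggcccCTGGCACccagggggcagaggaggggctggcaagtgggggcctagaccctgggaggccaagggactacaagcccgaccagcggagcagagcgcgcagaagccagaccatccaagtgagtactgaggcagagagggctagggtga
Mobp promoter, chr8:128746982-128747281, plus strand: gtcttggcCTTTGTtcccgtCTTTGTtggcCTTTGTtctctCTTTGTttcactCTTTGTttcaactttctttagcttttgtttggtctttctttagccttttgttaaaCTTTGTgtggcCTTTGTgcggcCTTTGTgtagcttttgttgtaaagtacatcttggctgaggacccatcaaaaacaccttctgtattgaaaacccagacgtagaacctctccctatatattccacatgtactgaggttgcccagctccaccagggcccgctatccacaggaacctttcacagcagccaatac
The Cnp window held 1 ACAAAG, 1 CTGGCAC and 1 CAGCTG, and the Mag window 1 ACAAAG and 1 CTGGCAC. The Mobp window held 8 copies of ACAAAG, all as CTTTGT, in a repetitive stretch. Of all 33469 windows in the table, 18.8% held ACAAAG, 13.2% ACAATG, 4.75% CTGGCAC and 15.1% CAGCTG. At least 8 copies of ACAAAG were found in 3 of the 33469, and the highest number was 10. One Mbp window and the Cldn11 and Ugt8 windows held none of the 4 motifs, and the other Mbp window, also not shown, held 1 ACAAAG, 2 ACAATG and 1 CAGCTG. These are matches of letters and not known binding sites.

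Transcripts of tissue next to CA1 differed between arrays, and 3 arrays stood out. Ttr, made by the choroid plexus, ran from 3.66 to 4.43 (log2) after spatial learning and from 4.55 to 13.4 after the control task, so that every control array lay above every spatial learning array. It was highest in control task replicate 3, followed by replicates 6, 2 and 1 at 8.79, 7.54 and 6.08. Ptgds and Col1a1, which are high in meninges, were at 12.5 and 6.84 in spatial learning replicate 6 and at 12.7 and 6.67 in control task replicate 6, while the other arrays lay at no more than 10.9 and 3.71. The difference, spatial learning minus control task, was -3.33 (SE 1.17, limma adjusted p = 0.423) for Ttr. It was -0.29 (SE 0.45) for Ptgds and 0.02 (SE 0.64) for Col1a1. CA1 pyramidal neuron markers themselves were present, 8 of 8 measured genes being bright enough to test. Of 5 Schwann cell markers measured, Prx and Ngfr were below the minimum level. Mlip, Egr2 and Pmp22, none of them exclusive to Schwann cells, averaged 5.79, 7.78 and 8.30, with differences of -0.03 to 0.04 between the tasks. The group differences, the shared level of the members and the correlations that moved most are given below also without the 3 arrays that stood out, control task replicates 3 and 6 and spatial learning replicate 6.

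The comparison of spatial learning with the control task found no member that passed the test over the whole array. Of the 14 tested probe sets, 2 had a positive difference, spatial learning minus control task, and 12 a negative one. The members' median difference, over the brightest probe set of each gene, was -0.07 (log2), beside 0.01 over all 9610 tested probe sets, of which 46.3% were negative. With limma and Benjamini-Hochberg adjustment 0 of 14 passed, where 0% of all tested probe sets passed. At an unadjusted limma p under 0.05 there were 2 of 14, 1 of Cnp and 1 of Lpar1, where 10.9% of all tested probe sets were past that value. No member's groups were fully separate, and 0.635% of all tested probe sets had groups that did not overlap. In bulk tissue of this kind, fewer oligodendrocytes and less RNA per oligodendrocyte cannot be told apart.

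**Figure D1:**
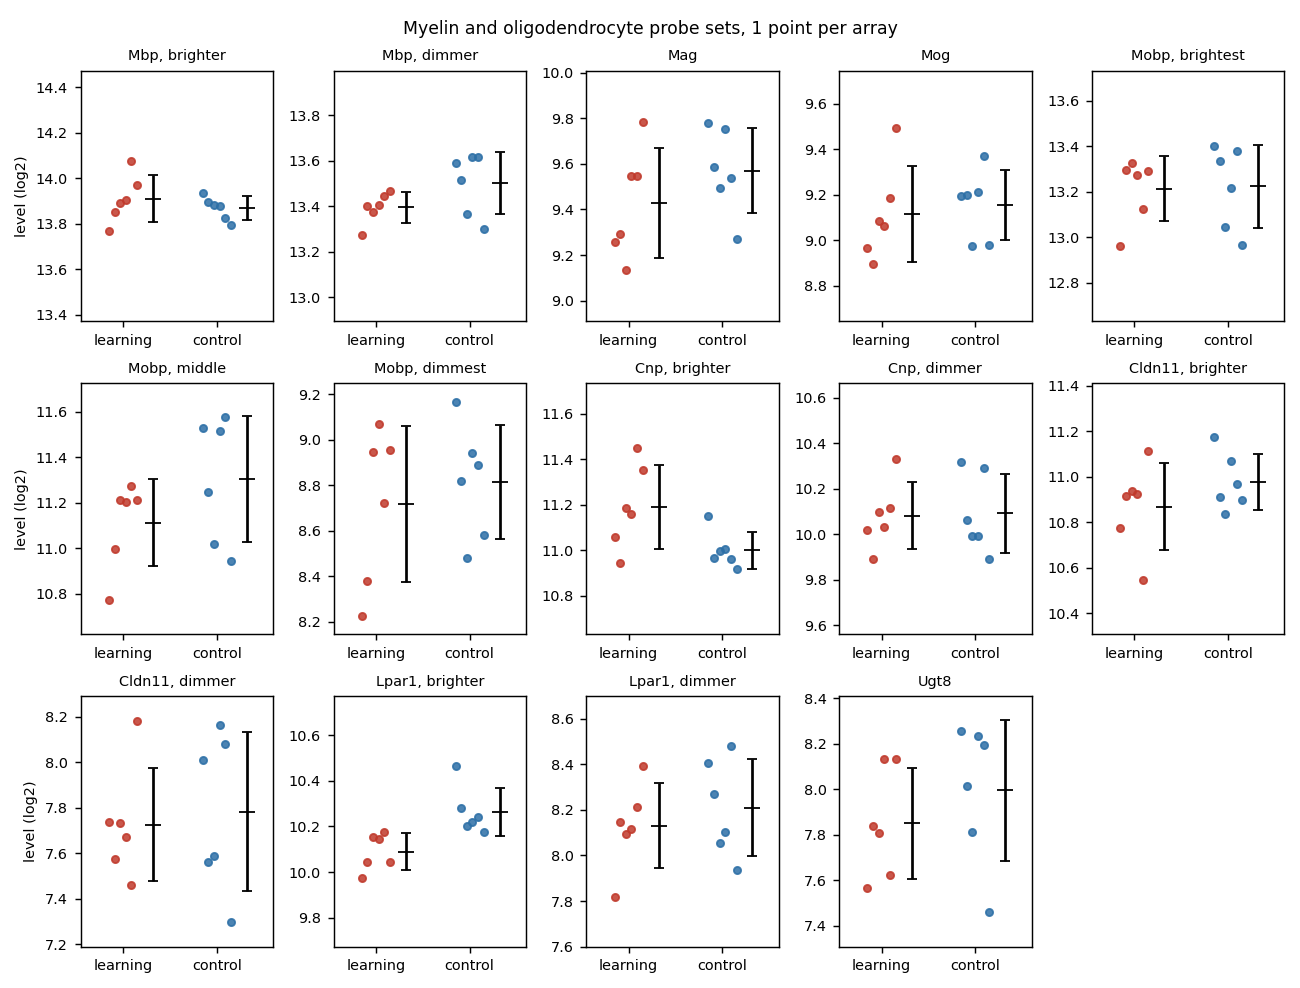
Level (log2, each panel on its own scale, all of the same height) of the 14 tested member probe sets, 1 point per array, spatial learning in red on the left and control task in blue on the right, with the mean and SD of each group (n = 6). The groups overlap in every panel, least for the brighter Lpar1 probe set, where 5 of 6 spatial learning arrays lie below the lowest control array.

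Mbp, the basic protein that binds the cytoplasmic faces of compact myelin to each other, was near the top of the array's range on both of its probe sets. Its brighter probe set ran from 13.77 through a median of 13.90 to 14.08 after spatial learning and from 13.79 through 13.88 to 13.94 after the control task. The control arrays lay within the range of the spatial learning arrays. Of the latter 2 were above the highest control array, spatial learning replicate 5 being highest, and 1 was below the lowest. The difference was 0.04 (SE 0.05, limma adjusted p = 0.768). The dimmer Mbp probe set ran from 13.27 through 13.40 to 13.47 after spatial learning and from 13.30 through 13.55 to 13.62 after the control task. Here 4 control arrays lay above the highest spatial learning array, and the difference was -0.11 (SE 0.06, limma adjusted p = 0.522). The probe sets of Mbp thus had differences of opposite sign, both within 2 SE of 0.

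Mobp, a small basic protein of oligodendrocytes that lies in the major dense line of compact myelin, was read by 3 probe sets. The brightest averaged 13.21 ± 0.14 after spatial learning and 13.22 ± 0.18 after the control task (SD, n = 6 each), a difference of -0.01 (SE 0.08, limma adjusted p = 0.975). The middle one ran from 10.77 through 11.21 to 11.27 after spatial learning and from 10.94 through 11.38 to 11.57 after the control task. Its control arrays were split into 3 above every spatial learning array and 3 within their range, and its difference of -0.19 (SE 0.12, limma adjusted p = 0.591) was the most negative of the 14. The dimmest averaged 8.72 ± 0.34 after spatial learning and 8.81 ± 0.25 after the control task, a difference of -0.10 (SE 0.15, limma adjusted p = 0.854).

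Mag and Mog are adhesion molecules of the immunoglobulin family, Mag on the membrane that faces the axon and Mog on the outermost surface of the sheath. Mag ran from 9.14 through 9.42 to 9.78 after spatial learning and from 9.27 through 9.56 to 9.78 after the control task. The highest array of each group had the same level to 2 decimals, and the difference was -0.14 (SE 0.11, limma adjusted p = 0.677). Mog ran from 8.90 through 9.07 to 9.50 after spatial learning and from 8.98 through 9.20 to 9.37 after the control task. Spatial learning held both the highest and the lowest Mog array, and the difference was -0.04 (SE 0.10, limma adjusted p = 0.904).

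Cldn11 forms the tight junctions that seal the layers of the sheath. Its brighter probe set ran from 10.55 through 10.92 to 11.11 after spatial learning and from 10.84 through 10.94 to 11.17 after the control task. The lowest array was spatial learning replicate 5, the array on which the brighter probe sets of Mbp and Cnp were highest. The difference was -0.11 (SE 0.08, limma adjusted p = 0.676), and that of the dimmer Cldn11 probe set was -0.06 (SE 0.16, limma adjusted p = 0.918). Ugt8 is the transferase that makes galactosylceramide, the main glycolipid of myelin. Its tested probe set ran from 7.57 through 7.82 to 8.13 after spatial learning and from 7.46 through 8.11 to 8.25 after the control task, with a difference of -0.14 (SE 0.14, limma adjusted p = 0.748). Its dimmer probe set lay between 2.89 and 3.11 on all arrays, where this array gives no usable level.

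Cnp, the cyclic nucleotide phosphodiesterase of the cytoplasmic channels of myelin, had the most positive difference of the members. Its brighter probe set measured 11.059, 10.947, 11.187, 11.158, 11.448 and 11.355 in spatial learning replicates 1 to 6, against 11.150, 10.969, 10.998, 11.006, 10.961 and 10.918 in control task replicates 1 to 6. Spatial learning replicates 3 to 6, which is 4 of 6, were above the highest control array, and the control arrays lay close together. The difference was 0.19 (SE 0.08, 95% interval 0.03 to 0.35), a 1.14-fold higher level. It did not pass over the whole array (limma adjusted p = 0.429), and its unadjusted 2-sided exact permutation p was 0.0390. The dimmer Cnp probe set ran from 9.89 through 10.06 to 10.33 after spatial learning and from 9.89 through 10.03 to 10.32 after the control task, a difference of -0.01 (SE 0.08, limma adjusted p = 0.975). The interval of this difference, -0.19 to 0.17, stopped short of the value of the brighter probe set. Whether the 2 Cnp probe sets differ in their response was not tested.

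Lpar1, a receptor for the signalling lipid lysophosphatidic acid that oligodendrocytes carry, had the smallest adjusted p of the members. Its brighter probe set measured 9.976, 10.042, 10.152, 10.145, 10.178 and 10.046 in spatial learning replicates 1 to 6, against 10.467, 10.282, 10.202, 10.220, 10.242 and 10.175 in control task replicates 1 to 6. Only spatial learning replicate 5 reached into the range of the control arrays. The difference was -0.17 (SE 0.05, 95% interval -0.29 to -0.06), a level 0.886 times that of the control task. It too did not pass over the whole array (limma adjusted p = 0.388), and its unadjusted 2-sided exact permutation p was 0.00433, where the smallest p these 12 arrays allow is 0.00216. Cnp and Lpar1 were singled out with earlier results of these data known, so the exact p values of both are a description. For the other tested member probe sets the unadjusted exact permutation p ran from 0.119 to 0.916. The dimmer Lpar1 probe set ran from 7.82 through 8.13 to 8.39 after spatial learning and from 7.94 through 8.19 to 8.48 after the control task. Its difference was -0.08 (SE 0.11, limma adjusted p = 0.823), with an interval from -0.31 to 0.15 that takes in the value of the brighter probe set.

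Leaving out spatial learning replicate 5 or replicate 6 raised the unadjusted limma p of the brighter Cnp probe set to 0.0540 and 0.0578, with differences of 0.14 and 0.16. The brighter Lpar1 probe set kept an unadjusted limma p of at most 0.0154 without any single array. Without the 3 arrays highest in Ttr or in Ptgds and Col1a1, 9 of 14 member probe sets had an unadjusted limma p under 0.05, against 11.6% of all tested probe sets, and all 9 differences were negative. The differences there ran to -0.38 (SE 0.11) for Ugt8 and -0.37 (SE 0.11) for the middle Mobp probe set, and the median of 30 other mature oligodendrocyte genes was -0.12, against -0.03 with all 12 arrays. No member passed the adjusted test in that subset either, the smallest limma adjusted p being 0.114 for the dimmer Mbp probe set with a difference of -0.20. The brighter Cnp probe set was not among the 9, with a difference of 0.14 (SE 0.09, limma adjusted p = 0.561). Ttr still separated the groups in that subset, at 3.66 to 4.38 in 5 spatial learning arrays and 4.55 to 7.54 in 4 control arrays. The subset was chosen after the data had been seen, and 2 of the 3 arrays it leaves out are among the extremes of the myelin pattern described next.

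The members varied together from rat to rat, and how far their shared level differed between the tasks depended on which arrays were counted. With each gene centred on its own mean over the 12 arrays, the mean of the 8 genes ran from -0.19 in spatial learning replicate 1 to 0.17 in spatial learning replicate 6, and from -0.18 in control task replicate 6 to 0.19 in control task replicate 1. Over all 12 arrays each group therefore held arrays at both ends. The group means were -0.02 ± 0.12 after spatial learning and 0.02 ± 0.13 after the control task (SD, n = 6 each), a difference of -0.05, smaller than the SD within either group. Leaving out 1 array gave -0.09 (without control task replicate 6 or spatial learning replicate 6) to -0.01 (without spatial learning replicate 1), and the difference was -0.02 without control task replicate 1. Without the 3 arrays that stood out it was -0.16, with means of -0.06 ± 0.09 (SD, n = 5) after spatial learning and 0.10 ± 0.06 (SD, n = 4) after the control task. The spatial learning arrays there ran from -0.192 to 0.0364 and the control arrays from 0.0416 to 0.187, and all 5 spatial learning arrays lay below the lowest control array. Of the arrays left out, spatial learning replicate 6 was the highest of its group. Control task replicates 6 and 3 were the lowest of theirs, at -0.18 and -0.08. Leaving these arrays out could therefore only lower the difference, and the separation is a description. Spatial learning replicate 1 was among the 3 lowest arrays on 11 of 14 probe sets and control task replicate 6 on 10. Control task replicate 1 was among the 3 highest on 11, and spatial learning replicate 6 and control task replicate 5 on 9 each.

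**Figure D2:**
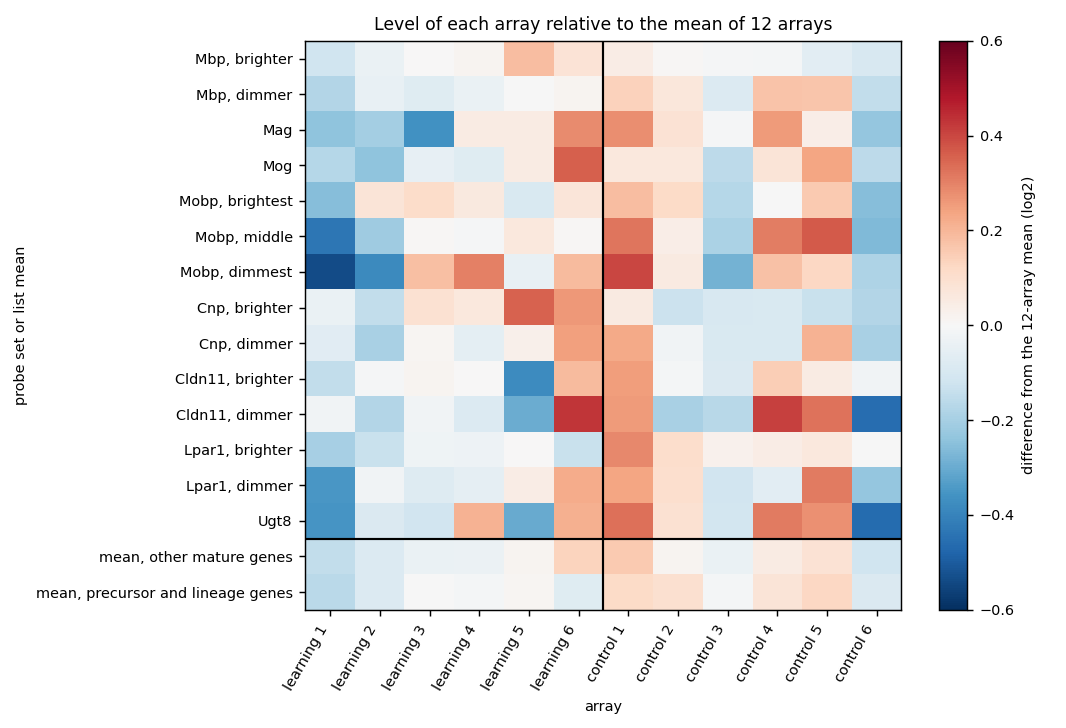
Level of each array relative to the mean of all 12 arrays (log2, colour scale from -0.6 to 0.6) for the 14 tested member probe sets and for the means of the other mature oligodendrocyte genes and of the precursor and lineage genes, spatial learning arrays left of the vertical line and control task arrays right of it. Spatial learning replicate 1 and control task replicate 6 are blue in nearly every line, and control task replicate 1 is red in nearly every line.

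The same pattern was seen in oligodendrocyte genes that are not members. The reference was the mean, per array, of 30 tested genes of mature oligodendrocytes, among them Bcas1, an oligodendrocyte protein, Plekhb1, Qdpr and Tppp, the brightest of the list. Over 12 arrays the members' Pearson r with that mean had a median of 0.79, where the median over all tested probe sets was -0.01 and 0.364% of them were above the members' median. That share counts the members and the 30 reference genes themselves. All these values share the same 12 arrays and are not independent of each other. After Benjamini-Hochberg adjustment over the 14 relations, 11 passed by Pearson's r and 12 by Spearman's rho, each with 100000 permutations. The members were chosen with their shared variation in these data known. The permutation p values here are therefore a description and not an independent test. The dimmer Lpar1 probe set was highest (r = 0.90, adjusted permutation p = 0.0017, rho = 0.85, adjusted permutation p = 0.0018), and r was 0.87 without the 2 arrays farthest from the median, spatial learning replicate 6 and control task replicate 1. Mog followed with r = 0.85 and rho = 0.89 (adjusted permutation p = 0.0017 and 0.0011), and r = 0.90 without those arrays. Mag had r = 0.84 and rho = 0.85 (adjusted permutation p = 0.0019 and 0.0018), and r = 0.74 without them.

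The brighter probe sets of Cnp, Mbp and Cldn11 were the 3 that missed by Pearson's r. The brighter Cnp probe set was the least related of the 14 (r = 0.38, adjusted permutation p = 0.219, rho = 0.34, adjusted permutation p = 0.278), and r was 0.15 without the 2 farthest arrays. With the group means removed its r was 0.71, and it was 0.76 within spatial learning and 0.77 within the control task, 6 arrays each. Without the 3 arrays that stood out its r over the other 9 was 0.07. The relation was thus positive within each group and weak across them, while the groups overlapped in level and their difference did not pass the adjusted test. The dimmer Cnp probe set followed them over all arrays, with r = 0.85 (adjusted permutation p = 0.0017, rho = 0.75, adjusted permutation p = 0.0109) and r = 0.69 without the 2 farthest. The brighter Mbp probe set had r = 0.55 (adjusted permutation p = 0.0642, rho = 0.61, adjusted permutation p = 0.0463), and r = 0.46 without the farthest arrays, while the dimmer one had r = 0.84 and rho = 0.90 (adjusted permutation p = 0.0017 and 0.0010). The brighter Cldn11 probe set had r = 0.57 and rho = 0.75 (adjusted permutation p = 0.0580 and 0.0109), and r was 0.22 without the farthest arrays. That last value keeps spatial learning replicate 5, the lowest array of this probe set. Within spatial learning r was 0.36 and within the control task 0.81.

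The brighter Lpar1 probe set lay between. Its r was 0.59 and its rho 0.62 (adjusted permutation p = 0.0493 and 0.0463), and r was 0.77 without the farthest arrays and 0.95 without the 3 arrays that stood out. Within spatial learning r was 0.31 and within the control task 0.81, and spatial learning replicate 6 was high in the other oligodendrocyte genes and among the 3 lowest arrays in Lpar1. Whether the relation differs between the groups was not tested.

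**Figure D3:**
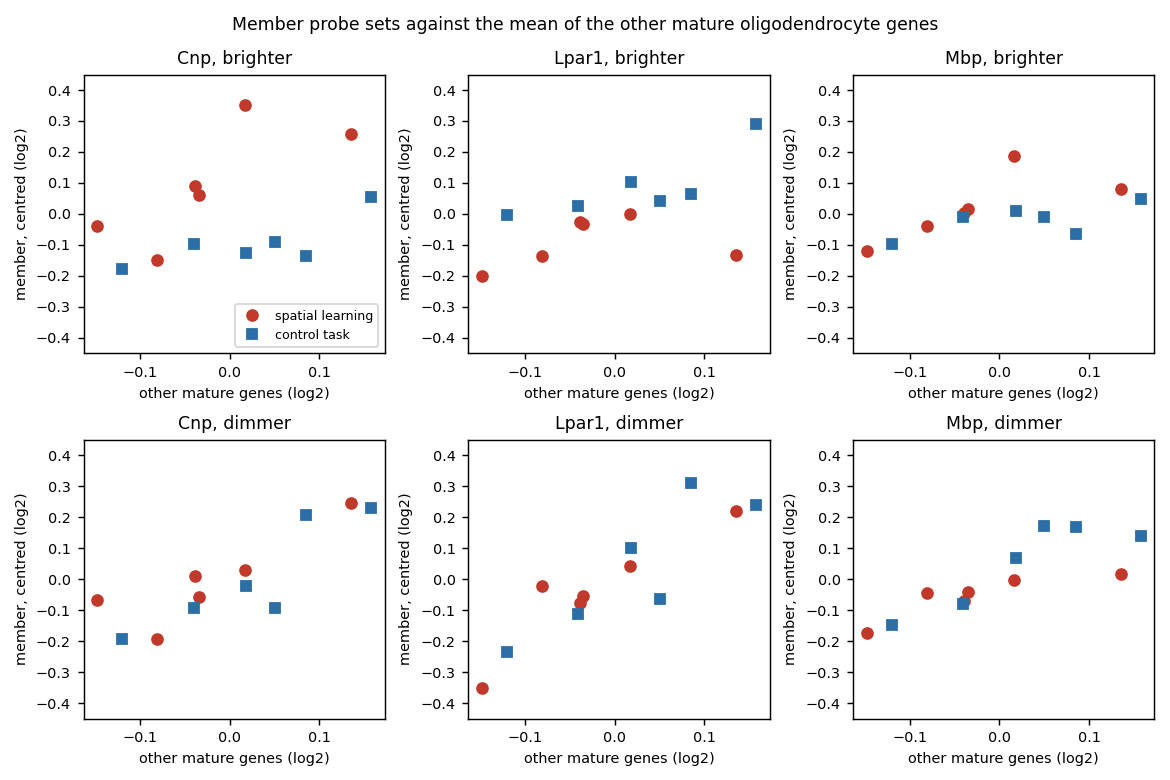
Level of both probe sets of Cnp, Lpar1 and Mbp, centred on the 12-array mean (log2, y axis), against the mean of the 30 other mature oligodendrocyte genes (log2, x axis), spatial learning as red circles and control task as blue squares. For the brighter Cnp probe set most spatial learning arrays lie above the control arrays at like x, and for the dimmer one the groups are mixed along 1 line.

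When the mean of the other mature oligodendrocyte genes was added to the fit as a covariate, 8 of 14 differences were positive and 6 negative, against 2 and 12 without it. The brighter probe sets of Cnp and Lpar1 were again those past an unadjusted limma p of 0.05, 2 of 14 against 9.82% of all tested probe sets. That of Cnp had a difference of 0.24 (SE 0.06, 95% interval 0.11 to 0.37, limma adjusted p = 0.335), beside 0.19 without the covariate. That of Lpar1 had -0.15 (SE 0.05, 95% interval -0.25 to -0.04, limma adjusted p = 0.483). The dimmer probe sets were at 0.06 (SE 0.05, limma adjusted p = 0.710) for Cnp and 0.01 (SE 0.06, limma adjusted p = 0.956) for Lpar1. Their intervals, -0.05 to 0.17 for Cnp and -0.12 to 0.14 for Lpar1, overlapped those of the brighter probe sets. Neither offset of the brighter probe sets passed over the whole array. Both genes were chosen for their departure with earlier results of these data known, so the intervals are a description. Whether the 2 probe sets of a gene differ at a matched oligodendrocyte level was not tested.

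**Figure D4:**
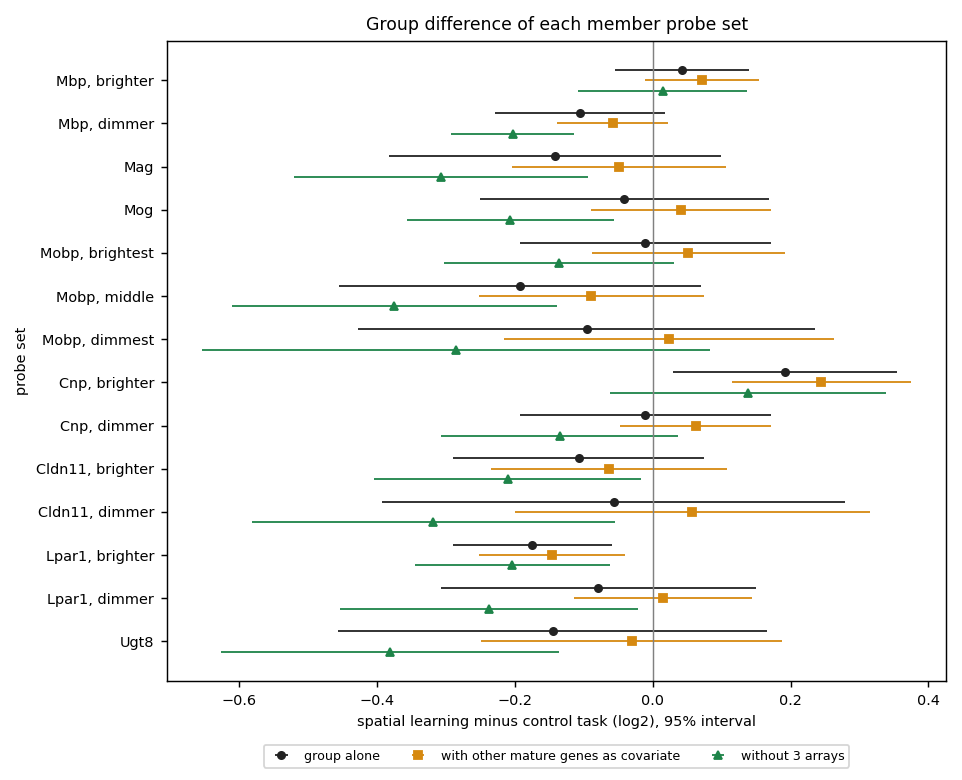
Difference of each tested member probe set, spatial learning minus control task (log2), with its 95% interval, from the fit with group alone (black circles), with the mean of the other mature oligodendrocyte genes as covariate (orange squares) and without the 3 arrays high in choroid plexus or meningeal transcripts (green triangles). The brighter Cnp probe set has the highest values, 0.19 with group alone and 0.24 with the covariate, and leaving out the 3 arrays shifts every probe set to the left.

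The brighter Cnp probe set was also set against the members themselves. Cnp and Lpar1 were picked as members that depart with earlier results of these data known, so these departures are a description. Its level minus the mean of the other 7 genes averaged 0.14 ± 0.16 after spatial learning and -0.14 ± 0.10 after the control task (SD, n = 6 each). Of the spatial learning arrays 5 lay above the highest control array, and the difference was 0.27. The brighter Lpar1 probe set minus the other 7 averaged -0.07 ± 0.14 after spatial learning and 0.07 ± 0.09 after the control task, a difference of -0.14. With the less bright probe sets of Mbp and Cnp in place of the brighter ones, the departure of Cnp was 0.09, beside 0.09 for Mobp and -0.09 for Lpar1. With the brightest probe set of each gene, departures of the members other than Cnp and Lpar1 ran from -0.11 to 0.10.

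Between the 28 pairs of genes, each by its brightest probe set, 25 correlations over the 12 arrays were positive and the median r was 0.44. Adjusted over the 28 pairs, 4 passed by Pearson's r and 1 by Spearman's rho, again a description of members chosen with their shared variation known. Cldn11 with Ugt8 passed by both (r = 0.74, adjusted permutation p = 0.0362, rho = 0.85, adjusted permutation p = 0.0232) and held at r = 0.71 without the 2 farthest arrays. Mobp with Ugt8 had r = 0.80 (adjusted permutation p = 0.0333, rho = 0.69, adjusted permutation p = 0.0817) and r = 0.59 without its 2 farthest. Mag with Ugt8 had r = 0.75 (adjusted permutation p = 0.0463, rho = 0.74, adjusted permutation p = 0.0651) and r = 0.76 without its 2 farthest. Of the 4 pairs, 3 thus included Ugt8. Among the 10 pairs without Cnp, Mbp and Lpar1 all were positive, with a median r of 0.60. The 7 pairs with Cnp had a median of 0.12, the 7 with Mbp 0.30 and the 7 with Lpar1 0.37, and these sets share pairs. This split was made with earlier results of these data known, so it is a description.

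The fourth pair was Cnp with Mbp (r = 0.84, adjusted permutation p = 0.0193, rho = 0.75, adjusted permutation p = 0.0651). It was 0.85 without the 2 arrays farthest from the median on Mbp, 0.53 without the 2 farthest on Cnp, and 0.70 without spatial learning replicate 5, the highest array for both. With group means removed r was 0.88. The value is for the brighter probe set of each, and r was lower between the probe sets of 1 gene: it was 0.50 between the Cnp probe sets and 0.31 between the Mbp probe sets. The brighter Cnp probe set with the dimmer Mbp probe set had r = 0.02. The remaining pairs of probe sets of 1 gene had r of 0.72 to 0.82 for Mobp, 0.69 for Cldn11 and 0.52 for Lpar1. Averaging all tested probe sets of each gene raised the median over the 28 pairs to 0.66.

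**Figure D5:**
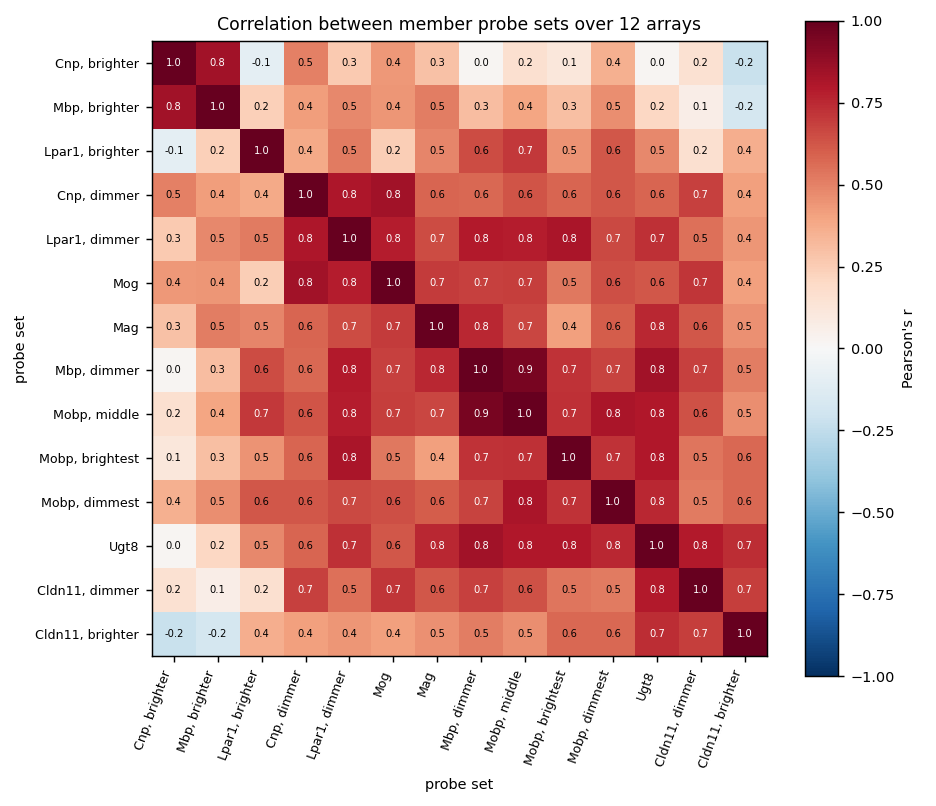
Pearson's r over 12 arrays between the 14 tested member probe sets, with the value printed in each cell to 1 decimal and colour from -1 (blue) to 1 (red). The brighter probe sets of Cnp and Mbp are red with each other and reach at most 0.5 against the rest. The rest are all positive with each other. They are palest for the brighter Lpar1 probe set, at 0.2 with Mog and with the dimmer Cldn11 probe set.

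Markers of other cells and a measure of RNA quality are given beside these differences. Of 16 astrocyte markers tested, 13 had a negative difference (median -0.10), and the per-array mean of the list ran from -0.11 to 0.06 after spatial learning and from -0.01 to 0.12 after the control task. Of 8 CA1 pyramidal neuron markers, 8 had a positive difference (median 0.23), and the list mean ran from -0.05 to 0.27 after spatial learning and from -0.30 to 0.02 after the control task. Of the choroid plexus markers 4 of 10 measured were tested, 3 with a negative difference (median -0.28), and the list mean ran from -0.73 to -0.33 after spatial learning and from -0.37 to 2.27 after the control task, while Aqp1, Otx2, Kl, Folr1, F5 and Sostdc1 were below the minimum level. Most differences were thus positive for CA1 neurons and negative for astrocytes and choroid plexus. Of the markers of neighbouring brain regions 4 of 8 were tested, 3 with a negative difference (median -0.11), and the list mean ran from -0.34 to 0.03 after spatial learning and from -0.07 to 0.34 after the control task. Among them Slc17a6, a vesicular glutamate transporter abundant in the thalamus, had -0.73 (SE 0.26, limma adjusted p = 0.426). Ppp1r1b had -0.13 (SE 0.06) and Penk -0.09 (SE 0.09), while Prkcd had 0.10 (SE 0.08). Of 5 dentate granule cell markers tested, 4 had a negative difference (median -0.23), with list means from -0.20 to 0.11 after spatial learning and from -0.16 to 0.34 after the control task. The median difference was -0.29 over 7 meningeal markers, -0.05 over 10 microglia markers, 0.03 over 9 vessel markers and 0.07 over 5 CA3 markers. In all of these lists 0 genes passed the limma adjusted test. The hexokinase control of the array, whose 3′ minus 5′ signal grows as RNA is shorter or less fully copied, averaged 1.65 ± 0.11 after spatial learning and 1.48 ± 0.08 after the control task (SD, n = 6 each, unadjusted exact permutation p = 0.00433). That gap ran from 1.55 to 1.82 after spatial learning and from 1.35 to 1.55 after the control task, so a fit can hardly tell it apart from the task. With it as a covariate the difference was 0.19 (SE 0.11) for the brighter Cnp probe set and -0.16 (SE 0.08) for the brighter Lpar1 probe set, beside 0.19 and -0.17 without it. Others moved more: the middle Mobp probe set had -0.07 (SE 0.17), beside -0.19, the brighter Cldn11 probe set -0.21 (SE 0.12), beside -0.11, and the dimmer Lpar1 probe set -0.13 (SE 0.15), beside -0.08. The difference of the 8-gene mean was -0.07 in that fit, beside -0.05. SEs were wider there, and 0 members had an unadjusted limma p under 0.05 in that fit, where 6.3% of all tested probe sets did. The part of tissue composition and of RNA quality in the members' differences was not tested.

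Of 50 other genes of mature oligodendrocytes, 33 had a probe set with a single symbol and 30 were tested. Of their differences 10 were positive and 20 negative, the median was -0.03 and 0 passed the adjusted test. An unadjusted limma p under 0.05 was found for 2 of the 30, where 10.9% of all tested probe sets were past that value. Those 2, named here after their values were seen, were Gamt, an enzyme of creatine synthesis, at -0.25 (SE 0.09, limma adjusted p = 0.423) and Tspan2, a membrane protein of oligodendrocytes, at -0.11 (SE 0.05, limma adjusted p = 0.437). The brightest of the list were close to level: Bcas1 had -0.04 (SE 0.10), Plekhb1 -0.03 (SE 0.09), Qdpr -0.05 (SE 0.11) and Tppp -0.10 (SE 0.06).

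Among precursor and lineage genes, 11 of 24 were tested, 3 with a positive and 8 with a negative difference, and 0 passed the adjusted test. Olig1, a transcription factor of the lineage, averaged 10.30 ± 0.08 after spatial learning and 10.35 ± 0.15 after the control task (SD, n = 6 each), a difference of -0.05 (SE 0.07, limma adjusted p = 0.840). The proteoglycan gene Cspg5, also called neuroglycan C and not exclusive to oligodendrocyte precursors, averaged 9.30 ± 0.18 after spatial learning and 9.61 ± 0.08 after the control task, a difference of -0.31 (SE 0.07, limma adjusted p = 0.245). Id2, an inhibitor of differentiation found in many cell types, averaged 8.94 ± 0.24 after spatial learning and 9.44 ± 0.29 after the control task, a difference of -0.50 (SE 0.14, limma adjusted p = 0.376). These 2 had larger differences than any member. Pdgfra, the receptor that marks precursors and that was named after its value was seen, had a difference of 0.02 (SE 0.14, limma adjusted p = 0.977), and Ptprz1 had -0.01 (SE 0.08, limma adjusted p = 0.984).

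Of the lysophosphatidic acid pathway beside Lpar1, 7 genes had a probe set and 4 were tested, all with a negative difference and none past the adjusted test. The receptors Lpar2 and Lpar3 were below the minimum level on this array, so Lpar1 was the one receptor of the family with a usable level among those measured. Enpp2, the secreted enzyme autotaxin that makes lysophosphatidic acid, averaged 9.27 ± 0.18 after spatial learning and 9.69 ± 0.62 after the control task, a difference of -0.41 (SE 0.23, limma adjusted p = 0.538). Its highest value, 10.9, was in control task replicate 3, the array with the highest Ttr, and Enpp2 is also abundant in the choroid plexus. Plpp3, a phosphatase that breaks lysophosphatidic acid down, had a difference of -0.11 (SE 0.07, limma adjusted p = 0.562), and Plpp1 and Plppr3 each had -0.01.

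Around Ugt8, 10 genes of sphingolipid and galactolipid metabolism were tested, with 5 positive and 5 negative differences and a median of 0.00. Psap, the precursor of the saposins that help break down sphingolipids, had -0.06 (SE 0.06), and Ugcg, which makes glucosylceramide from the same ceramide that Ugt8 uses, had -0.17 (SE 0.10). Of 15 genes of axon-glia contact and of the node, 5 had a positive and 10 a negative difference with a median of -0.05. Of these 3 had an unadjusted limma p under 0.05, all negative, where 10.9% of all tested probe sets were past that value. They were Ank2, an ankyrin of axons, at -0.15 (SE 0.06), and Cntn1 and Cntnap1, the axonal partners at the paranode. Cntn1 and Cntnap1, named after their values were seen, were at -0.26 (SE 0.10) and -0.21 (SE 0.08). In both lists 0 genes passed the limma adjusted test.

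Outside the members, 10 genes were picked for the highest r with the 8-gene mean over the 12 arrays, among 6859 genes, so that their r is a description only. They were Ldhb (r = 0.89), a lactate dehydrogenase subunit, Olig1 (0.88), Edil3 (0.87), Sox10 (0.86), a transcription factor of the oligodendrocyte lineage, Pygm (0.86), a glycogen phosphorylase, Hspb1 (0.86), a small heat shock protein, Cryab (0.85), a small heat shock protein abundant in oligodendrocytes, Cisd1 (0.85), Fnbp1 (0.85) and Plaat3 (0.84). Their own differences between the groups ran from -0.17 to -0.02, with no limma adjusted p below 0.756. The 5 with the lowest r were Cpne8 (-0.91), Septin6 (-0.89), Fitm2 (-0.89), Tnks2 (-0.88) and Zfp189 (-0.86), and their differences ran from 0.01 to 0.16.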

How the data were processed

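RNA of 12 CA1 dissections was hybridised to 1-colour Affymetrix RAE230A arrays, and the sample titles gave the groups and the numbers of the biological replicates. The deposited values are log2 probe set summaries made by the authors with GCRMA, per the submitters' processing notes, which corrects background by probe sequence and normalizes between arrays. Its version and settings: not given in the sources used here. The log2 scale was settled from the range, 0.134 to 14.8. A change in total RNA cannot be seen after such normalization, and differences of dim probe sets are compressed. No scan date or batch is given in the sources used here, and the number of arrays limits the precision.

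Of 15866 probe sets other than the 57 controls, 12783 had 1 symbol in the platform annotation, which can be old, 312 several and 2771 none. Those with a mean of at least 4 over the 12 arrays, 9610, were tested with limma 3.58.1 in R 4.3.3 (lmFit with group as the term, eBayes with an intensity trend, 2-sided, Benjamini-Hochberg over all tested, threshold 0.05), so that every limma adjusted p is over the whole array. Single values also had an exact permutation test over the 924 choices of 6 of 12 arrays. Correlations used 100000 permutations in Python 3.11.15 with scipy 1.17.1. List genes entered through their brightest single-symbol probe set. The limma step was tested on simulated data.

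The members, lists and tests were chosen with earlier results of these data known. Named were all member probe sets, up to 4 of the brightest tested genes of each supporting list plus any past the test, the 10 genes most like the members' mean and the 5 most opposed, and genes of array composition. Other genes are said to be named after their values were seen. Replicate numbers recur in both groups but did not pair the arrays: correlations of same-numbered deviations ran from -0.17 to 0.08, so the replicate block is an alternative only. The other alternatives were no filter, a minimum of 6, added quantile normalization, no intensity trend, robust eBayes, both covariates, each array left out and, added after the data were seen, 3 arrays left out and other probe sets for Mbp and Cnp.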

Additional observations from a re-analysis of the deposited data

Results flagged for a closer look

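Of 32 groups of 6 values checked, 1 held an array far from the others of its group by Dixon's criterion, which chance meets in about 1 of 20 groups. It was the brighter Lpar1 probe set in control task replicate 1, at 10.467, where the next array of the group was at 10.28 and the gap was 0.634 of the group's range. The same array was the highest in the mean of the 8 members. Without it the Lpar1 difference was -0.13 (SE 0.04, limma adjusted p = 0.452), against -0.17 with all arrays.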

How the results depend on the processing

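No member passed the limma adjusted test under any of the 21 alternatives run for that count, and the brighter Cnp probe set (0.14 to 0.24) and Lpar1 probe set (-0.20 to -0.13) kept their sign in all of theirs, with limma adjusted p from 0.335 to 0.788 and from 0.229 to 0.775. With the replicate block 0 members and 0 probe sets in all passed, and 769 had an unadjusted p under 0.05, against 1048 without it. It changed no other call. Of 308 member differences under alternatives 285 kept their sign and their side of the threshold, 21 changed sign, and the exact permutation tests of the brighter Cnp and Lpar1 probe sets, at 0.19 and -0.17, were past 0.05 unadjusted. With the covariate of other mature genes the sign turned for Mog (0.041), the brightest and dimmest Mobp (0.051 and 0.023) and the dimmer Cnp (0.062), Cldn11 (0.058) and Lpar1 (0.014) probe sets, and with added quantile normalization for the brightest Mobp (0.0076). Leaving out 1 array gave ranges across 0 for Mog (-0.12 to 0.0028), the brightest Mobp (-0.063 to 0.040), the dimmest Mobp (-0.17 to 0.0019), the dimmer Cnp (-0.061 to 0.034) and the dimmer Cldn11 (-0.15 to 0.019). All of these are within 1 SE of 0 with all arrays, and the cause was not tested. Over the whole array 0 to 3 probe sets passed with 1 array left out, the 3 without control task replicate 6, and 5 without the 3 arrays. The median pairwise correlation was 0.66 with the mean over all probe sets of each gene, against 0.44.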
